A study of Mus musculus with 6 samples.

Results

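The genes described are 10 that code for the uptake, storage, export and sensing of iron, out of 56748 genes in the count table. They were taken by gene name: *Tfrc*, *Tfr2*, *Fth1*, *Ftl1*, *Slc40a1*, *Slc11a2*, *Aco1*, *Ireb2*, *Hfe* and *Steap3*, and all 10 names matched a single gene. The list was chosen by iron biology, but also with results of these same libraries known, since *Tfrc* had been seen to stand out between the groups. Differences between the groups are therefore given for the 10 genes as a description, and no test of them supports anything.

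RNA-seq was performed on hearts of Pontin cTG mice and of their non-transgenic littermates (WT), with 3 mice per group. The transgene of Pontin cTG mice is a human cDNA for Pontin (RUVBL1, an AAA+ ATPase of chromatin and transcription complexes) with a flag tag, driven in cardiomyocytes by the α-MHC promoter, and the background strain of the mice was C57Bl/6. The mice were male and were 10 weeks old when treatment began. Mice of both genotypes received angiotensin II at 1.5 mg/kg BW/day from mini-osmotic pumps for 14 days, so WT hearts were treated hearts too, and no untreated heart enters the comparison. Total RNA came from heart tissue, in which fewer cells of a type and less RNA per cell cannot be told apart.

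Cells take up iron bound to transferrin through the transferrin receptor, and store what they do not use in ferritin. Control of these steps runs through the iron regulatory proteins, which bind a hairpin called the iron-responsive element when iron is scarce. Bound at the 3′ UTR of the receptor mRNA they protect it from decay, and bound at the 5′ UTR of ferritin or ferroportin mRNA they block its translation. Heart muscle depends on this uptake for its mitochondria. The first of these effects acts on mRNA amount, which an RNA-seq count reads without separating it from other effects on that amount. The second, on translation, is not read by such a count.

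The element was searched for in the UTRs of the longest coding transcript of each gene. A match was the letters CNNNNNCAGTGN followed by 5 bases that pair with the 5 before the loop. Only the transcript strand was read. The 4 bases at each outer end were printed but not required to pair. Of the 10 genes, 4 held a match, with 7 matches in all. They are shown because they are the sequence that the receptor and the stored-iron genes share, and because their place in the mRNA differs. Capitals mark the unpaired C and the loop letters CAGTGN, and each name carries the position of its first base in the UTR.
Tfrc 3′ UTR 885: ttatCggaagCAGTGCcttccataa
Tfrc 3′ UTR 1264: ttatCgggagCAGTGTcttccataa
Tfrc 3′ UTR 1329: atatCggagaCAGTGAtctccatat
Tfrc 3′ UTR 1376: ttatCgggaaCAGTGTttcccataa
Fth1 5′ UTR 660: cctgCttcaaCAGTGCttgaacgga
Ftl1 5′ UTR 80: cttgCttcaaCAGTGTttgaacgga
Slc40a1 5′ UTR 92: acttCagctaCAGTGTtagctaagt

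The *Tfrc* elements lie in the 3′ UTR, on the plus strand of GRCm38, at chr16:32631221-32631245, chr16:32631600-32631624, chr16:32631665-32631689 and chr16:32631712-32631736. The *Fth1* element is at chr19:9982734-9982758 on the plus strand, in the 5′ UTR. That UTR is 795 bases long in the transcript read, and the position of 660 holds for that transcript only. Other transcripts of *Fth1* were not read. On the minus strand, the 5′ UTR elements of *Ftl1* and *Slc40a1* are at chr7:45459781-45459805 and chr1:45925467-45925491. Over all genes, the same search matched 19 of 20702 5′ UTRs (0.0918%) and 118 of 20969 3′ UTRs (0.563%). *Slc11a2*, *Aco1*, *Ireb2*, *Hfe*, *Steap3* and *Tfr2* held no match in the UTRs of the transcript read, which says nothing of other transcripts of the same genes. A match is a description of the sequence, and no binding was measured.

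Library totals ran from 12436822 to 13194038 counts in WT and from 14584102 to 16888124 in Pontin cTG. Pontin cTG replicate 2 stood apart: on the first principal component, which held 48.6% of the variance, it scored 50.9 and the other libraries scored between -23.1 and 16.2. The correlation of each library's deviation with gene length (Spearman, across genes, which are not independent replicates) ran from 0.110 to 0.185 in WT and was 0.0838, -0.205 and -0.156 in Pontin cTG replicates 1, 2 and 3. Mouse *Ruvbl1* had normalised counts of 216, 221 and 217 in WT and 249.9, 250.02 and 239.95 in Pontin cTG, higher in all 3 transgenic hearts, and how far reads of the human transgene reach this gene was not tested. As a check of the tissue, 6 cardiomyocyte genes summed to between 27995 and 33652 TPM over the 6 libraries, while the atrial genes *Sln* and *Myl7* had 3 and 11 counts in all libraries together. The other atrial gene, *Myl4*, had 153 counts, with 8.81, 21.3 and 23.5 normalised counts in WT and 28.3, 43.7 and 21.7 in Pontin cTG.

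Levels are compared between genes in TPM, which divides each count by the gene length in the table and scales each library to the same total. *Fth1*, the heavy chain of ferritin that oxidises iron for storage, was the most abundant, at 789 ± 22.4 TPM (SD, n = 3) in WT. *Ftl1*, the light chain that helps form the iron core, followed at 168 ± 63.0 TPM. *Tfrc* was the third, at 74.4 ± 20.6 TPM, and ranked above 93.0% of all tested genes in WT. The storage chains were thus the top of the order, with the receptor below them. *Hfe* ranged from 25.5 to 32.3 TPM, and *Aco1* stood at 21.6 ± 0.446 TPM and *Steap3* at 14.8 ± 0.596 TPM. *Ireb2* stood at 12.7 ± 0.591 TPM and *Slc11a2* at 11.7 ± 0.689 TPM, and these neighbours overlapped between WT libraries. *Slc40a1* was at 5.49 ± 1.21 TPM. All other neighbours in WT had ranges that did not overlap, with *Steap3* and *Ireb2* the closest at a ratio of 1.17. These ranges show the spread between libraries only. The order also rests on the gene length used, which was not varied. The same order held in Pontin cTG, where *Steap3* and *Ireb2* overlapped and so did *Ireb2* and *Slc11a2*.

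**Figure D1:**
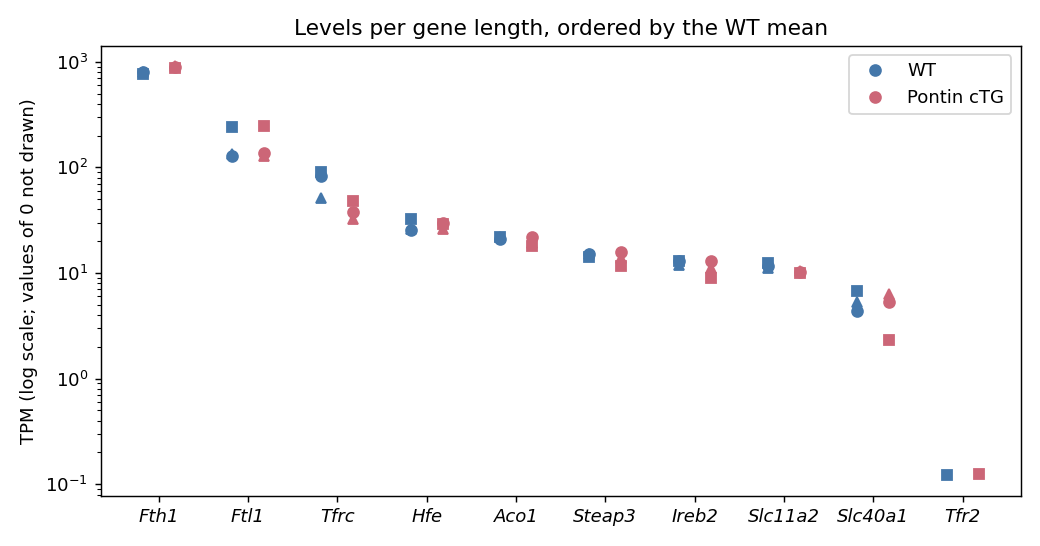
TPM of the 10 genes on a log axis, ordered by the WT mean, with WT libraries in blue and Pontin cTG libraries in red (circle, square and triangle are replicates 1, 2 and 3). *Fth1* sits highest, *Tfrc* is the third, and *Tfr2* has a value above 0 in replicate 2 of each group only.

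*Tfr2*, the second transferrin receptor and an iron sensor of liver and erythroid cells, was at the floor. It had 0, 3 and 0 counts in WT replicates 1, 2 and 3 and 0, 4 and 0 counts in the Pontin cTG replicates. All 7 counts were in replicates numbered 2. A count of 0 allows up to 3 counts in a library, so a difference in *Tfr2* was not detectable at this depth, and *Tfr2* was the only one of the 10 that failed the filter on low counts (at least 10 counts, edgeR's default rule). The transferrin receptor signal in these hearts therefore came from *Tfrc*, with 13395 counts in all.

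*Tfrc* (ENSMUSG00000022797, chromosome 16, 32608920 to 32632794, GRCm38, plus strand) codes for the receptor that brings iron-loaded transferrin into the cell. Its normalised counts, which are counts scaled by TMM library size, were 3444, 3544 and 2070 in WT replicates 1, 2 and 3. In Pontin cTG they were 1491, 1837 and 1373. All 3 transgenic hearts were below all 3 WT hearts, and the gap between the lowest WT and the highest transgenic heart was 11.3% of the former. WT replicate 3 stood closer to the transgenic hearts than to the other WT hearts. The means were 3019 ± 823 (SD, n = 3) in WT and 1567 ± 241 in Pontin cTG, which is 0.519 of the WT level. The log2 fold change was -0.95 with a standard error of 0.22. The counts behind these values ran from 1527 to 3159 per library.

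*Tfrc* was selected on this contrast, so its place among all genes is given only for scale. It ranked 4 by p among 13888 genes. At an adjusted p under 0.05 (edgeR, quasi-likelihood, Benjamini-Hochberg), 0% of the genes tested were called and 0 of the 9 members tested. DESeq2 and limma-voom also called 0 of the members, and 1 and 3 of all 13888 genes. At an unadjusted p under 0.05, 1.02% of all genes were higher and 1.03% lower in Pontin cTG, and among the members *Tfrc* alone passed. Without a filter on low counts, edgeR called 0.0117% of 25636 genes as lower, which was 3 genes with *Tfrc* among them. The *Tfrc* fold change kept its sign when each library was left out in turn, between -1.15 without WT replicate 3 and -0.82 without WT replicate 2, and it was -1.08 without Pontin cTG replicate 2.

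**Figure D2:**
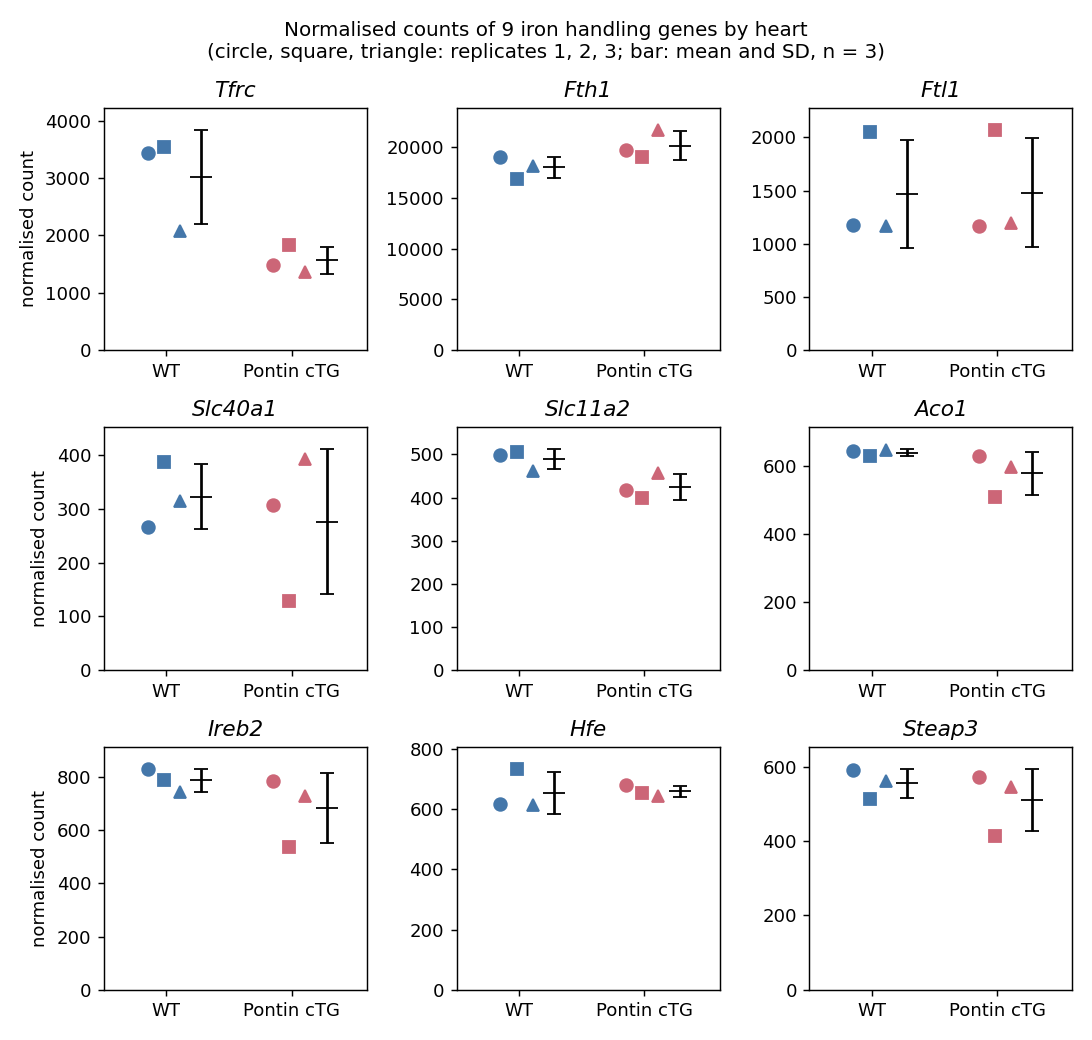
Normalised counts of the 9 tested genes in each heart, by group, on axes that start at 0, with the mean and SD (n = 3) as a bar beside the points. The 3 Pontin cTG hearts lie between 1373 and 1837 for *Tfrc* and the WT hearts between 2070 and 3544, while for *Ftl1* the high heart is replicate 2 in both groups.

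**Figure D3:**
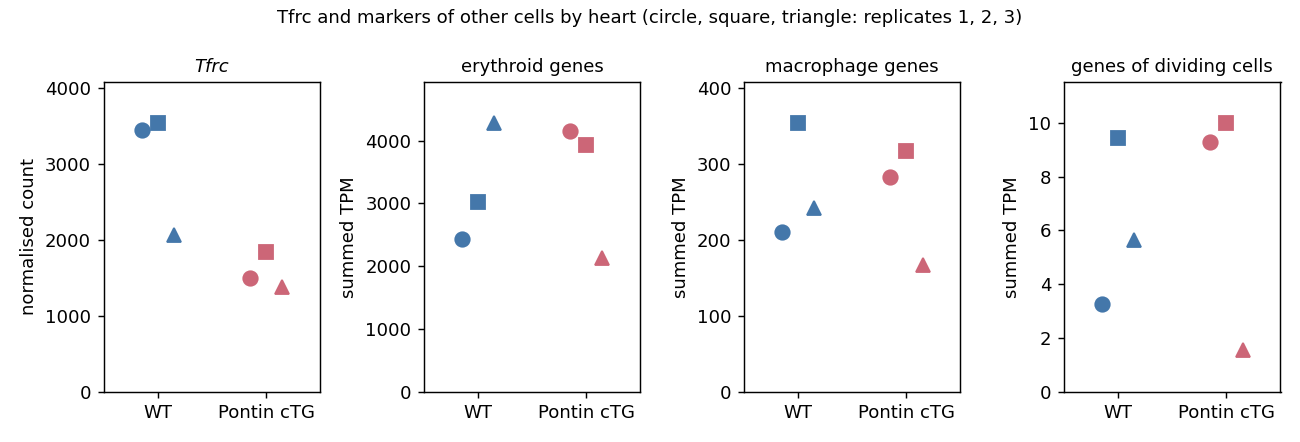
*Tfrc* normalised counts beside the summed TPM of erythroid, macrophage and dividing-cell genes in the same 6 hearts. The marker sums of the groups overlap in every panel and the *Tfrc* values do not, although within the macrophage list *Csf1r* does not overlap either, with Pontin cTG below WT.

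Other cells rich in this receptor are erythroid precursors and dividing cells. The summed level of the erythroid genes (6 of 7 listed names matched) was 2436, 3029 and 4285 TPM in WT and 4157, 3937 and 2123 TPM in Pontin cTG, with an exact two-sided permutation p of 1. Genes of dividing cells (5 of 5 matched) summed to 3.24, 9.43 and 5.66 TPM in WT and to 9.29, 10.01 and 1.57 TPM in Pontin cTG (exact permutation p = 0.9). With 3 hearts per group the smallest p this test can give is 0.1. The groups overlapped in both sums, and WT replicate 3, which had the lowest *Tfrc* of the WT hearts, had the highest erythroid sum. Macrophage genes (6 of 6 matched) ranged from 210 to 354 TPM in WT and from 166 to 316 TPM in Pontin cTG (exact permutation p = 0.9). The list was split behind this sum. The complement genes *C1qa* and *C1qb* were at 1.05 and 1.03 of the WT mean in Pontin cTG, while *Csf1r*, *Adgre1*, *Mrc1* and *Cd68* were at 0.763, 0.728, 0.634 and 0.611. *Csf1r*, the receptor that macrophages need for survival, had normalised counts of 753, 1076 and 797 in WT and 693, 748 and 564 in Pontin cTG, so its groups did not overlap and lay in the same direction as *Tfrc*. WT replicate 2 was the highest heart for these 4 genes. *Mrc1* had an unadjusted p under 0.05 and none of the 6 passed after adjustment over all genes (edgeR). Cardiomyocyte genes (6 of 6 matched) ranged from 29837 to 33652 TPM in WT and from 27995 to 33360 TPM in Pontin cTG, also with an exact permutation p of 0.9. Within this list the groups did not overlap for *Myl2*, at 1.18 of the WT mean in Pontin cTG, and for *Actc1*, at 0.926. The rest of the list overlapped. Over all genes tested, 4.7% lay above and 3.63% below WT in this way. Endothelial sums were 295 to 316 TPM in WT and 247 to 396 TPM in Pontin cTG, fibroblast sums were 195 to 298 TPM and 202 to 289 TPM, and both gave the same exact permutation p of 0.9. No marker of these 6 lists was at 0 counts. The part of any of these cells in the *Tfrc* values was not tested.

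The ferritin chains store the iron that the receptor brings in. *Fth1* (chromosome 19, 9980598 to 9985098, GRCm38) had normalised counts of 18958, 16870 and 18084 in WT and of 19656, 18969 and 21669 in Pontin cTG. The transgenic hearts were all above the WT hearts, by a margin of 18969 against 18958 at the closest point, and under DESeq2's size factors the groups overlapped. The log2 fold change of *Fth1* was 0.16 with a standard error of 0.13. *Ftl1* (chromosome 7, 45457944 to 45459884, minus strand) had 1175, 2052 and 1170 in WT and 1173, 2073 and 1199 in Pontin cTG. Replicate 2 of each group was high and the other 4 hearts lay together, so the spread within a group was larger than the difference, at a log2 fold change of 0.016 with a standard error of 0.29. The coefficient of variation of *Ftl1* was 34.6% in both groups, where the median over all genes tested was 11.6% in WT and 18.3% in Pontin cTG. Reads of *Ftl1* and its near-identical copies cannot be separated with certainty, and *Ftl1-ps1* had 372 counts in all beside 8949 for *Ftl1*.

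Set against each other, storage and uptake mRNAs gave a ratio in each heart. *Fth1* counts per *Tfrc* count were 5.51, 4.76 and 8.73 in WT and 13.2, 10.3 and 15.8 in Pontin cTG. The groups did not overlap in this ratio, but its denominator *Tfrc* was chosen on this contrast, so nothing is read from that. Most of the difference came from the denominator: the *Tfrc* mean was 1.93-fold higher in WT and the *Fth1* mean was 1.12-fold higher in Pontin cTG. The heavy to light chain ratio, in *Fth1* counts per *Ftl1* count, was 16.1, 8.22 and 15.5 in WT and 16.8, 9.15 and 18.1 in Pontin cTG, and it followed the replicate 2 hearts rather than the genotype.

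Iron leaves the endosome and the cell by dedicated carriers. *Slc11a2*, which codes for DMT1, the carrier of ferrous iron out of the endosome, had normalised counts of 499.96, 505 and 463 in WT and 418, 398 and 457 in Pontin cTG. The groups did not overlap, although the gap was 1.36% of the lowest WT heart. Its log2 fold change was -0.21 with a standard error of 0.12. *Steap3*, the endosomal reductase that turns ferric into ferrous iron for that step, had 591, 515 and 563 in WT and 572, 415 and 546 in Pontin cTG. The *Steap3* groups overlapped, and its log2 fold change of -0.12 (SE 0.15) was 0.0063 without Pontin cTG replicate 2.

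*Slc40a1* codes for ferroportin, the exporter of iron from cells. It had 266, 388 and 314 normalised counts in WT and 307, 129 and 393 in Pontin cTG. The lowest and the highest of the 6 hearts were both transgenic, and the log2 fold change of -0.23 (SE 0.34) became 0.12 (SE 0.17) without Pontin cTG replicate 2 and 0.11 under limma-voom with sample weights. Macrophages express this exporter strongly, and their marker sum was 316 TPM in Pontin cTG replicate 2, where *Slc40a1* was lowest, and 166 TPM in replicate 3, where it was highest. Single macrophage genes went different ways in replicate 2. *Mrc1* (479 normalised counts) and *Adgre1* (224) were below all WT hearts there, but were lower still in replicate 3 (367 and 193). *C1qa* (848) was the highest of the 6 hearts in replicate 2, where *C1qb* was at 865. The scavenger receptor *Cd163*, which is not in the marker list, was at 160 in replicate 2, the lowest of the 6 hearts, as *Slc40a1* was. The part of macrophages in the *Slc40a1* values was not tested.

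The regulatory proteins that bind the element are IRP1, coded by *Aco1*, and IRP2, coded by *Ireb2*. IRP1 switches to a cytosolic aconitase when it holds an iron-sulfur cluster, so its mRNA does not report its binding activity, and IRP2 is controlled by protein degradation. *Aco1* had normalised counts of 643, 627 and 645 in WT and 629, 507 and 596 in Pontin cTG. *Ireb2* had 830, 789 and 745 in WT and 785, 536 and 729 in Pontin cTG. For both, replicate 2 was the lowest of the transgenic hearts and the groups overlapped, although with library size alone as the scaling the *Aco1* groups did not. The log2 fold change was -0.15 (SE 0.13) for *Aco1* and -0.21 (SE 0.16) for *Ireb2*, and without Pontin cTG replicate 2 these were -0.060 and -0.057. *Ireb2* counts per *Aco1* count lay between 1.06 and 1.29 in all 6 hearts.

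*Hfe*, the class I-like protein that binds the transferrin receptor and is mutated in haemochromatosis, had 617, 735 and 614 normalised counts in WT and 681, 654 and 645 in Pontin cTG. The transgenic hearts all fell inside the WT range, with a log2 fold change of 0.012 and a standard error of 0.13, and the sign turned to -0.026 without WT replicate 1, to -0.025 without WT replicate 3 and to -0.0035 without Pontin cTG replicate 1.

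**Figure D4:**
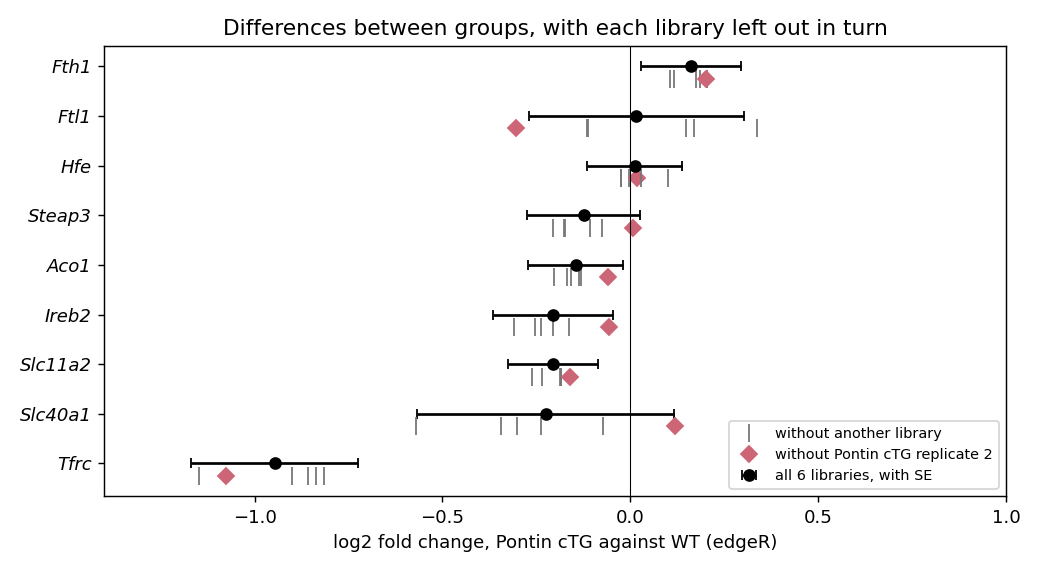
Log2 fold change of Pontin cTG against WT for the 9 tested genes (black, with standard error), and the same with each library left out in turn (ticks, and a red diamond for Pontin cTG replicate 2). *Tfrc* keeps to between -1.15 and -0.82, while *Ftl1* and *Slc40a1* lie on both sides of 0.

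Over the members, 3 of the 9 tested had a positive and 6 a negative log2 fold change, with a median of -0.15 beside 0.0013 over all 13888 genes. Groups did not overlap for 2 members with Pontin cTG below WT (*Tfrc* and *Slc11a2*) and for 1 above (*Fth1*), where 3.63% and 4.7% of all genes tested lay below and above in this way. Since the members were chosen on this contrast, nothing is read from these counts. Pontin cTG replicate 2 was the lowest of the 6 hearts for 5 of the 9 members (*Slc40a1*, *Slc11a2*, *Aco1*, *Ireb2* and *Steap3*), and for 30.7% of all genes tested. The part of this library in those values was not tested, and *Tfrc* was not among the 5.

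Another 73 genes of iron biology, in 8 lists, were not used by the choice of members. Of these, 64 were tested, and 0 passed an adjusted p of 0.05 in edgeR, DESeq2 or limma-voom. Over all 13888 genes these tools called 0, 1 and 3. At an unadjusted p under 0.05 (edgeR), 1 gene was higher (*Glrx5*) and 1 was lower (*Hmox1*), beside 1.02% and 1.03% of all genes. The median log2 fold change was 0.010. The 64 divided into 33 with a positive and 31 with a negative fold change.

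In the list of iron uptake, reduction and export, all 8 genes tested had a negative fold change, with a median of -0.23, and 0 had groups that did not overlap. Over all 13888 genes tested, 6912 had a negative fold change, and 3.63% lay below and 4.7% above WT without overlap. *Trf*, the transferrin that *Tfrc* binds, had normalised counts of 547, 854 and 537 in WT and 574, 595 and 463 in Pontin cTG. A single WT heart, replicate 2, was high, and the *Trf* log2 fold change of -0.25 (SE 0.20) was 0.0048 without it. *Lcn2*, a binder of bacterial iron chelators that rises in inflammation, had 28.6, 138 and 32.4 in WT and 36.1, 30.0 and 13.9 in Pontin cTG, and its log2 fold change of -1.32 (SE 0.63) was -0.20 without WT replicate 2. *Steap4*, a metalloreductase, had 779, 874 and 685 in WT and 700.03, 671 and 701 in Pontin cTG, at -0.17 (SE 0.13), and these groups overlapped.

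In the list of iron chaperones, ferritin turnover and IRP2 turnover, 3 of the 4 tested were positive, with a median of 0.058. *Ncoa4*, the receptor that carries ferritin to the lysosome, had 655, 672 and 595 normalised counts in WT and 627, 330 and 609 in Pontin cTG, and the difference of -0.30 (SE 0.23) was -0.052 without Pontin cTG replicate 2. *Fbxl5*, the iron-sensing ligase subunit that marks IRP2 for degradation, had 614, 661 and 669 in WT and 669, 458 and 850 in Pontin cTG, at 0.024 (SE 0.21), with a sign that turned under the replicate block and without WT replicate 1 or Pontin cTG replicate 3. *Pcbp2*, a chaperone that hands iron to ferritin, was at 0.12 (SE 0.13). None of these genes separated the groups.

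Proteins that degrade *Tfrc* mRNA made a list of 4, with 3 positive and 1 negative fold change and a median of 0.064. *Zc3h12a*, the endonuclease Regnase-1 that cuts *Tfrc* mRNA in its 3′ UTR, had 73.8, 61.7 and 72.7 normalised counts in WT and 84.0, 71.9 and 65.8 in Pontin cTG. The *Zc3h12a* groups overlapped, at a log2 fold change of 0.090 (SE 0.21) that was -0.0020 without Pontin cTG replicate 1. *Zfp36*, tristetraprolin, had 207.03, 207.5 and 259 in WT and 393, 230.3 and 245 in Pontin cTG, at 0.36 (SE 0.22), with replicate 1 the high heart, and 0.089 without that heart. *Rc3h1*, Roquin-1, was at -0.15 (SE 0.18), and moved to -0.36 without Pontin cTG replicate 1 and to -0.0071 without replicate 2.

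The list of mitochondrial iron import and iron-sulfur cluster assembly held 14 positive and 4 negative fold changes of 18 tested, with a median of 0.12. Groups did not overlap for 4 genes above WT, *Glrx5* and *Slc25a28* among them, and for 1 below, beside 4.7% and 3.63% of all genes tested. *Glrx5*, a glutaredoxin that passes on iron-sulfur clusters, had 1038, 874 and 1117 normalised counts in WT and 1195, 1354 and 1288 in Pontin cTG, at 0.34 (SE 0.14), with the transgenic hearts all higher. *Slc25a28*, mitoferrin-2, which imports iron into mitochondria, had 278, 308 and 305 in WT and 329, 378 and 355 in Pontin cTG, at 0.25 (SE 0.13), again with the transgenic hearts all higher. Neither passed after adjustment over all genes.

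**Figure D5:**
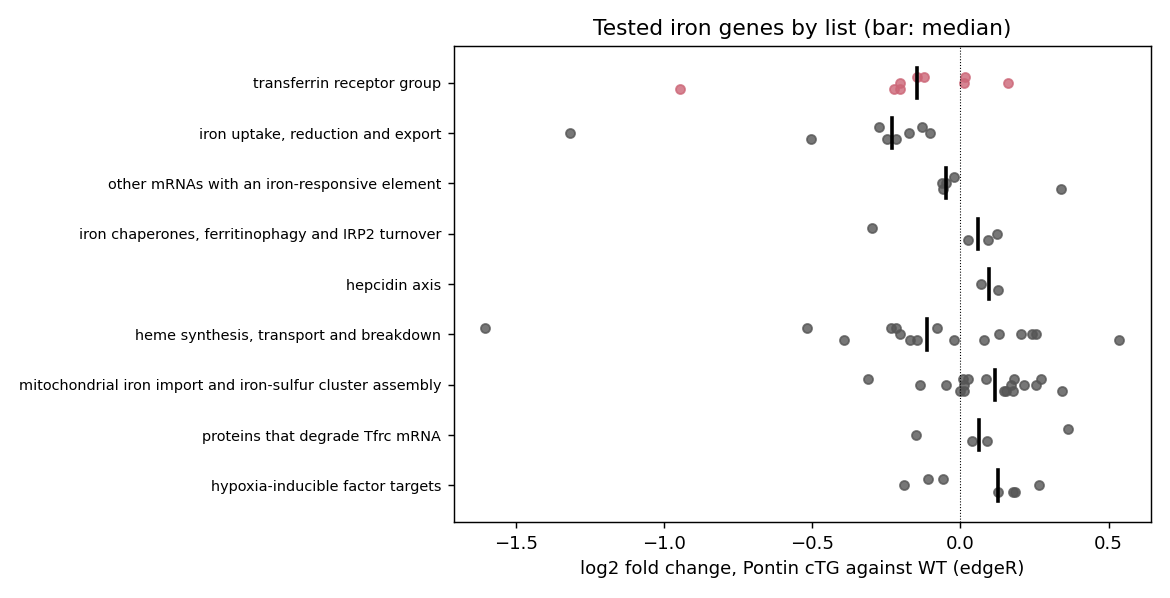
Log2 fold change of Pontin cTG against WT for the 9 tested members (red, labelled as the transferrin receptor group) and the 64 tested genes of the other 8 lists (grey), with the median of each list as a bar. *Tfrc* lies apart from the other members, and the grey points farthest to the left are *Hmox1* and *Lcn2*.

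Heme takes up much of the iron of a heart cell, and its list held 6 positive and 10 negative fold changes of 16, with a median of -0.11. Groups did not overlap for 2 genes above WT and 1 below, beside 4.7% and 3.63% of all genes tested. *Hmox1*, the inducible oxygenase that frees iron from heme, had 129, 813 and 133 normalised counts in WT and 125, 139.6 and 89.2 in Pontin cTG. WT replicate 2 alone was high, and the log2 fold change of -1.60 (SE 0.68) was -0.15 without it. *Urod*, a decarboxylase of heme synthesis, had 603, 614 and 608 in WT and 649, 755 and 775 in Pontin cTG, at 0.26 (SE 0.12), with the transgenic hearts all higher.

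The remaining lists held few genes. Of 5 further mRNAs reported to carry an iron-responsive element, 1 was positive and 4 were negative, with *Cdc14a*, a phosphatase, at 0.34 (SE 0.27), or 0.11 without Pontin cTG replicate 2, and *Epas1*, which codes for HIF-2α, at -0.058 (SE 0.14). In the hepcidin axis, *Hamp*, the hormone that removes ferroportin, had 4 counts in all, and 2 of 6 genes were tested: *Bmp6* at 0.13 (SE 0.13) and *Hjv* at 0.068 (SE 0.21), the latter with a negative sign without WT replicate 2 or Pontin cTG replicate 3. *Tfrc* is also a target of the hypoxia-inducible factors, and of 7 tested targets 4 were positive and 3 negative. Of these, *Slc2a1*, the glucose transporter GLUT1, had 165, 149 and 157 normalised counts in WT and 186, 184 and 195 in Pontin cTG. Its log2 fold change was 0.26 (SE 0.14). *Adm*, adrenomedullin, was at -0.19 (SE 0.21). The part of hypoxia-inducible factors in the *Tfrc* values was not tested.

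The genes whose pattern was most like that of *Tfrc* were taken by the Pearson correlation of log2 CPM over the 6 libraries, as a description. They were *Arhgap6* (r = 0.987, Spearman 0.886), *Rap1b* (0.975 and 0.943), *Vps4b* (0.967 and 0.829), *Ptpn22* (0.967 and 1) and *Kdm6a* (0.962 and 0.886). Of 13887 genes, 56 reached 0.9 and 9 reached 0.95. The 6 points share their libraries and depth with every gene compared, and *Ptpn22* rested on 68 counts in all. The differences between the groups were smaller than that of *Tfrc* for all 5, from -0.65 (SE 0.40) for *Ptpn22* to -0.13 (SE 0.12) for *Rap1b*.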

How the data were processed

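The authors deposited gene counts, whole numbers with no normalisation, in a table of 6 heart libraries, and each column was matched to its sample by the column name in the labels (0 left unmatched, 0 genes unnamed). The submitters' processing notes list fastp, HISAT2, featureCounts and DESeq2 with GRCm39. The paper's methods name Trimmomatic, STAR, mm10 and Gencode M25 for its RNA-seq, with a kit that does not mark strand, so which made this table is not settled. Of 52125 genes shared with GENCODE M21 (GRCm38), 1524 had the same coordinates, so positions here are those of M21, matched by Ensembl identifier. The methods speak of an outlier left out after principal component analysis, without naming it, and the statistics section of no exclusion. All 6 libraries were used, and which library was meant is not known here.

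Counts were fitted with edgeR 4.0.16 in R 4.3.3 (TMM, filterByExpr with a minimum count of 10, robust quasi-likelihood test, genotype only), with Benjamini-Hochberg adjustment over 13888 genes. Standard errors are the fold change divided by the square root of F. Alternatives used DESeq2 1.42.0, limma 3.58.1, other scalings, filters and each library left out. The steps were also run on data simulated with known changes. The share of these recovered is not given here, so how often a true difference would be called is not stated. No pair of libraries agreed within sampling noise (chi-square per gene at least 5.24). Library totals ran from 12436822 to 16888124, and limits for a count of 0 cover counting error only.

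The members, lists and rules were chosen with earlier results of these data known. Genes named were all members, the 2 with the smallest p in each list, *Trf*, *Fbxl5*, *Ncoa4* and *Zc3h12a*, and the 5 most like *Tfrc*. *Ruvbl1*, *Hamp*, *Cd163*, *Ftl1-ps1* and single marker genes were named outside this rule, after their values were seen. Counts of groups that do not overlap under other scalings, and without Pontin cTG replicate 2, were added after seeing the data. Some genes of the lists are not reported here.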

Additional observations from a re-analysis of the deposited data

How the results depend on the processing

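The members called were 0 in 14 of 15 alternatives and 1 without a filter on low counts, where *Tfrc* had an adjusted p of 0.0437 (edgeR). Over the 15 its adjusted p ran from 0.0437 to 0.9998, and its fold change was negative in all. The other iron genes called were 0 throughout, where each alternative called from 0 to 3 of all genes tested. Non-overlap was also counted in ways chosen after seeing the data. With DESeq2's size factors 0 members lay above WT and 2 below, beside 4.65% and 3.67% of all genes. With library size alone 1 lay above and 3 below, beside 5.34% and 3.36%. Without Pontin cTG replicate 2 there were 1 and 2, but 10.98% and 10.5% of all genes then did so.

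With a replicate block, members called were 0, other iron genes called were 0 and so was the count over all 13888 genes. *Tfrc* was at -0.92 (adjusted p = 0.510, edgeR). The block turned the sign of *Fbxl5* to -0.016 and changed no call. Deviations of same-numbered libraries (replicates 1, 2 and 3) correlated at 0.0772, 0.432 and 0.193. The labels name no shared litter or batch. Whether same-numbered libraries share more than a number is therefore not known, and it was not tested.

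Signs also turned elsewhere. Under limma-voom *Ftl1* was -0.029 and *Slc40a1* 0.11. With a library left out, *Ftl1* ran from -0.31 to 0.34, *Slc40a1* from -0.57 to 0.12, *Hfe* from -0.026 to 0.10, *Steap3* from -0.20 to 0.0063, *Hjv* from -0.088 to 0.25, *Trf* from -0.36 to 0.0048, *Fbxl5* from -0.20 to 0.23 and *Zc3h12a* from -0.0020 to 0.17. Over all alternatives *Cdc14a* ran from 0.054 to 0.49, *Zfp36* from 0.089 to 0.55, *Rc3h1* from -0.36 to -0.0071, *Steap4* from -0.25 to -0.085, *Pcbp2* from 0.065 to 0.19, *Bmp6* from 0.065 to 0.20, *Epas1* from -0.13 to -0.0058 and *Adm* from -0.33 to -0.11. The cause was not tested. The order of the members by level was the same on the other level scales tried, but nothing is read from that. Those scales share the gene lengths and differ only by a factor per library, so the order within a library could not change. Other gene lengths were not tried. Depth limits *Tfr2*, and 3 hearts per group limit every single-gene test.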

Other observations

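WT replicate 2 had the highest value of the 6 hearts for *Hmox1* (813 normalised counts, 89.2 to 139.6 in the others), *Lcn2* (138 normalised counts, against 13.9 to 36.1) and *Trf* (854 normalised counts, against 463 to 595). These genes were picked out together after their values were seen. The same heart was also the highest for the macrophage genes *Cd68* (271 normalised counts, with 72.8 to 116 elsewhere) and *Mrc1* (1131 normalised counts, with 367 to 611 elsewhere), and its macrophage sum was 354 TPM. Its *Tfrc* value was 3544, beside 3444 and 2070 in WT replicates 1 and 3. Without this heart the *Tfrc* log2 fold change was -0.82, the smallest difference with any library left out. The part of this heart's state in the *Tfrc* values was not tested.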
